A study of Mus musculus with 4 samples.

Results

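The Atoh, Neurog and Neurod genes encode the proneural basic helix-loop-helix (bHLH) factors of the developing nervous system, and 8 of them, *Atoh1*, *Neurog1*, *Neurog2*, *Neurog3*, *Neurod1*, *Neurod2*, *Neurod4* and *Neurod6*, were selected by symbol from the 24421 genes of the RNA-seq table. GFP+ cells had been sorted from E11.5 mouse neural tubes of embryos with 1 copy (Prdm13 GFP/+, labelled heterozygous) or 2 copies (Prdm13 GFP/GFP, labelled homozygous) of a knockin allele in which GFP interrupts exon 1 of *Prdm13*, so that the gene is disrupted. *Prdm13* encodes a zinc finger factor of the dorsal neural tube, so both groups carry at least 1 disrupted allele, and no wild-type embryos were in the comparison. For each genotype the RNA of several embryos was combined into 1 pool and sequenced as 2 libraries, which are therefore technical replicates. All SDs and tests below hold the spread of library preparation and sequencing and none between embryos.

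Proneural factors act in dividing progenitors and in newborn neurons. They pair with E proteins, bind the E-box CANNTG, switch on neuronal differentiation genes and raise Notch ligands, and Notch signaling in turn represses proneural genes in neighboring cells through Hes and Hey factors. Id proteins sequester the E protein partner. In the dorsal neural tube *Atoh1* marks the progenitors of dI1 interneurons and *Neurog1* and *Neurog2* those of dI2 and other domains, while Neurod genes generally come on later, as cells leave the cycle. *Neurog1*, *Neurog2*, *Neurod1* and *Neurod4* are also active in sensory ganglia.

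The sorted cells held RNA of dorsal neural tube genes and of neural progenitor and neuron genes. All 12 dorsal neural tube markers and all 6 markers of neural progenitors and neurons passed a mean of 1 RPKM, a read count scaled by exon length and by library size, in at least 1 genotype. *Prdm13* itself measured 113.9 and 126.8 RPKM in the Prdm13 GFP/+ libraries and 309.5 and 324.5 RPKM in the Prdm13 GFP/GFP libraries. Transcripts of the GFP allele still count toward the gene, so this level does not report functional *Prdm13*. Whole reads could be recovered from the RPKM values, and they summed to 11814836 to 18778831 per library. Limma's two-sided test was run on log2(RPKM + 0.1) for the 12046 genes whose mean reached 1 RPKM in at least 1 genotype, with Benjamini-Hochberg adjustment over all of them. Calls required a fold of 1.5 or more and an adjusted p under 0.05. Limma pools the spread over genes, which is needed here because the smallest p of an exact permutation test with 2 libraries per genotype is 0.333. Log2 fold changes are Prdm13 GFP/GFP minus Prdm13 GFP/+ and understate the change of low genes.

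Of the 8 genes, 5 were tested, and each of these passed the filter in both genotypes. *Neurog1*, *Neurog2* and *Neurod4* were called higher in the Prdm13 GFP/GFP cells and none was called lower, where 3.65% of all genes tested were called higher, 2.67% lower and 6.33% in either direction. *Neurod4* and *Neurog1* were more than 3-fold higher, and *Neurog2*, the most abundant of the family, was less than 2-fold higher. *Neurod1* and *Neurod2* had higher values in both Prdm13 GFP/GFP libraries but were not called, and *Atoh1*, *Neurog3* and *Neurod6* were below the filter. The median log2 fold change of the 5 genes was 0.81, beside 0.01 over all genes tested. In bulk RNA of sorted cells, a change in the number of cells that express a gene and a change in RNA per cell cannot be told apart.

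**Figure D1:**
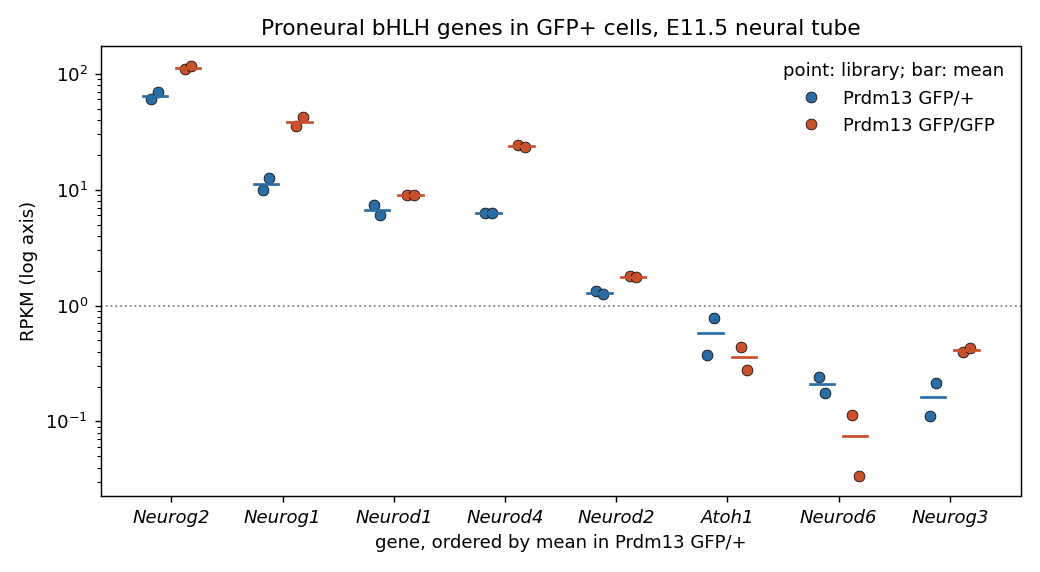
RPKM of the 8 genes in each library, on a log axis; points are libraries, short bars are the mean of the 2 libraries of a genotype, and the dotted line is the filter at 1 RPKM. *Neurog2*, *Neurog1*, *Neurod4*, *Neurod1* and *Neurod2* lie above the line with both Prdm13 GFP/GFP libraries above both Prdm13 GFP/+ libraries, and the *Atoh1* libraries of the genotypes overlap.

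The DNA just before an annotated start of each of the 3 called genes was examined. The reasons were that all were called higher and that proneural factors bind E-boxes. The windows are the 250 bases before an annotated RefSeq start, in GRCm38.p6, read on the strand of the gene from 5′ to 3′, with any CANNTG, which is the same on both strands, in capitals. The windows of *Neurog1* (chr13:56252181-56252430, minus strand) and *Neurod4* (chr10:130280255-130280504, minus strand) are shown as those of the members with the largest changes. That of *Neurod2* (chr11:98329646-98329895, minus strand) is shown as the member with the most E-boxes, and it was not called.
*Neurog1*: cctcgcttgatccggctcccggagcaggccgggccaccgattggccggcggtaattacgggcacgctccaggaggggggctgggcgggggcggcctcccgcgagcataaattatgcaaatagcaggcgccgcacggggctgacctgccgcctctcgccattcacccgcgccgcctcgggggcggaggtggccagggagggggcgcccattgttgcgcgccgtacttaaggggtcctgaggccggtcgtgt
*Neurod4*: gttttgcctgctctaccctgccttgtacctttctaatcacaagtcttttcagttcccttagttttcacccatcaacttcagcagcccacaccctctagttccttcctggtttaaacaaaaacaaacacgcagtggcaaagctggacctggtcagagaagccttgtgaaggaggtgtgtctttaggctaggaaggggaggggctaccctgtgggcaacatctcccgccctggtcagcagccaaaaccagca
*Neurod2*: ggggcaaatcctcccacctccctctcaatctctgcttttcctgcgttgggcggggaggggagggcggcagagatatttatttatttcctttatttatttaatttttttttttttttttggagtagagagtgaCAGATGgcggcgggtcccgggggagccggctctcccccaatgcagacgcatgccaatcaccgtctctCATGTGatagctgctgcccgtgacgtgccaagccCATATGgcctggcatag
No CANNTG was found in the *Neurog1* or *Neurod4* window, nor in that of *Neurog2* (chr3:127632886-127633135, plus strand) or that of *Atoh1*. The *Neurog2* window lies inside the span of that gene given below, so the bases before the span were not examined. The *Neurod2* window held 3, CAGATG with its first base 118 bases before the start, CATGTG at 51 bases and CATATG at 17 bases. The *Neurod6* window held 2 and those of *Neurod1* and *Neurog3* held 1 each. Of 32851 windows of this length in the RefSeq promoter table, 66.2% held a CANNTG, 13.0% held CAGCTG and 14.4% held CAGATG on either strand, each of these being counted among the CANNTG. The letters describe these windows only, and enhancers farther away were not examined.

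*Neurog1*, which encodes Neurogenin 1, is a gene of 1 exon (gene ID 18014, GRCm38 chr13:56250478-56252180, minus strand). It measured 9.86 and 12.5 RPKM (190 and 382 reads) in the Prdm13 GFP/+ libraries and 35.3 and 42.0 RPKM (957 reads in each) in the Prdm13 GFP/GFP libraries. Both Prdm13 GFP/GFP libraries were far above both controls, an order found in 31.7% of all genes tested, with the reverse order in 30.3%. Mean levels were 11.2 ± 1.88 and 38.7 ± 4.71 RPKM (SD, n = 2 libraries), a ratio of 3.46. The log2 fold change was 1.78 (SE 0.127, limma adjusted p = 0.000322), and the 95% interval of the fold ran from 2.79 to 4.26. Leaving out any 1 library gave log2 fold changes from 1.61 to 1.96, and the gene was called each time.

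*Neurog2*, for Neurogenin 2, has 2 exons with the coding sequence in 1 of them (gene ID 11924, chr3:127632733-127635636, plus strand). It was the most abundant member in all 4 libraries, with 60.0 and 69.2 RPKM (1539 and 2809 reads) in the Prdm13 GFP/+ libraries and 110.5 and 115.7 RPKM (3984 and 3510 reads) in the Prdm13 GFP/GFP libraries. The genotypes did not overlap, and the gap between them was several times the spread within either. The means were 64.6 ± 6.48 and 113.1 ± 3.69 RPKM (SD, n = 2), a ratio of 1.75. Its log2 fold change was 0.81 (SE 0.0730, limma adjusted p = 0.000840), with a 95% interval of the fold from 1.55 to 1.98. This interval lies wholly under that of *Neurog1*. Limma's treat test, which asks for a fold beyond 1.5 in place of a change of any size, gave an adjusted p of 0.335 for *Neurog2*.

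*Neurog3*, best known from the endocrine pancreas, was near the limit of detection. It had 2 and 6 reads (0.112 and 0.213 RPKM) in the Prdm13 GFP/+ libraries and 10 and 9 reads (0.399 and 0.427 RPKM) in the Prdm13 GFP/GFP libraries. The libraries were ordered by genotype, but the exact 95% Poisson intervals overlapped, from 0.0136 to 0.463 RPKM over the controls and from 0.192 to 0.811 RPKM over the mutants, and they cover counting error only. Without the filter, limma gave an adjusted p of 0.254, but *Neurog1* was not called in that fit either (adjusted p = 0.0907). Limma voom on recovered reads without a filter gave *Neurog3* a log2 fold change of 1.22 (adjusted p = 0.146), so no difference was called. In GENCODE, an exon of *Fam241b* (*2010107G23Rik* in the table) on the opposite strand overlaps *Neurog3*. That gene had 59 to 108 reads per library, more than *Neurog3*, and without strand the reads of an overlapping stretch cannot be told apart.

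Among the Neurod genes, *Neurod4* (gene ID 11923, chr10:130268152-130280254, minus strand), a factor of early neuronal differentiation, changed most. It measured 6.25 and 6.35 RPKM (242 and 389 reads) in the Prdm13 GFP/+ libraries and 24.2 and 23.4 RPKM (1314 and 1070 reads) in the Prdm13 GFP/GFP libraries. The libraries of a genotype were close to each other and the genotypes were well apart. The means were 6.30 ± 0.0673 and 23.8 ± 0.548 RPKM (SD, n = 2), a ratio of 3.77. The log2 fold change was 1.90 (SE 0.0577, limma adjusted p = 9.59e-06), with a 95% interval of the fold from 3.39 to 4.11, which overlaps that of *Neurog1*. *Neurod4* was the only member called under all 15 alternatives tried, and leaving out any 1 library moved its log2 fold change only from 1.88 to 1.92.

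*Neurod1* (gene ID 18012, chr2:79452637-79456636, minus strand), a factor of neuronal differentiation and survival, differed less. It measured 7.38 and 6.02 RPKM (213 and 275 reads) in the Prdm13 GFP/+ libraries and 8.95 and 8.94 RPKM (363 and 305 reads) in the Prdm13 GFP/GFP libraries. Both mutant libraries were above both controls, and the controls were the more spread of the pairs. The ratio of means was 1.34 and the log2 fold change 0.42 (SE 0.102, limma adjusted p = 0.0336). The fold was under 1.5, so it was not called, and its 95% interval ran from 1.13 to 1.58. Without the second Prdm13 GFP/+ library the log2 fold change was 0.27 (adjusted p = 0.130), and without the first it was 0.56 (adjusted p = 0.0240). In GENCODE, exons of *Cerkl* on the same strand and of *Gm26755* on the opposite strand overlap *Neurod1*. How the counting used strand is not given in the sources used here. *Cerkl* had only 1 to 5 reads per library in the table.

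*Neurod2* (gene ID 18013, chr11:98325415-98329645, minus strand), which acts in maturing neurons, measured 1.32 and 1.25 RPKM (48 and 72 reads) in the Prdm13 GFP/+ libraries and 1.80 and 1.75 RPKM (92 and 75 reads) in the Prdm13 GFP/GFP libraries. The libraries did not overlap, and the log2 fold change of 0.44 (SE 0.162, limma adjusted p = 0.113) did not pass the test. The 95% interval of the fold, 1.03 to 1.77, leaves room for a change as large as that of *Neurog2*. *Neurod6*, a gene of postmitotic forebrain neurons, had 6 and 7 reads (0.241 and 0.177 RPKM) in the Prdm13 GFP/+ libraries and 4 and 1 reads (0.114 and 0.0340 RPKM) in the Prdm13 GFP/GFP libraries. Its values were lower in the mutants, on few reads, and a difference was not called (limma adjusted p = 0.385 without the filter).

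**Figure D2:**
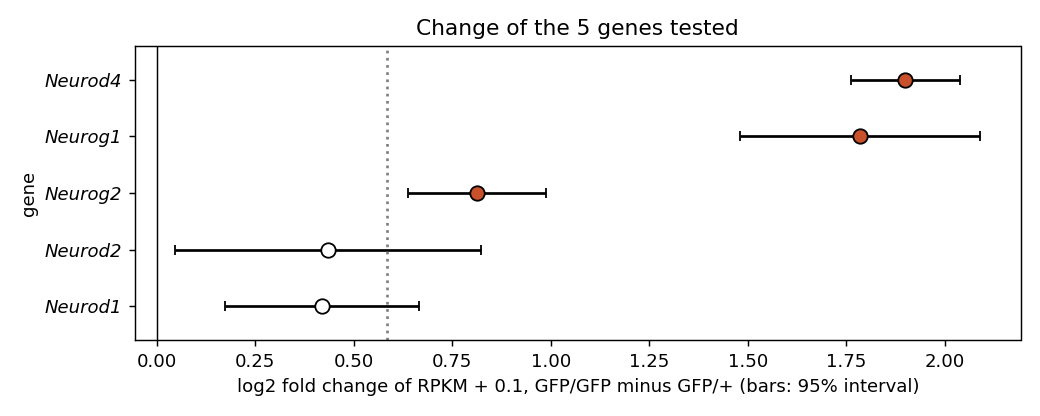
Log2 fold change of the 5 genes tested, Prdm13 GFP/GFP minus Prdm13 GFP/+, with 95% intervals from limma; filled points are called and the dotted line is a fold of 1.5. The intervals of *Neurod4* and *Neurog1* overlap each other and lie above that of *Neurog2*, and those of *Neurod2* and *Neurod1* reach across the dotted line.

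*Atoh1* (gene ID 11921, chr6:64729125-64731245, plus strand), the factor of the dorsalmost dI1 interneurons, was low in both genotypes. It had 9 and 30 reads (0.372 and 0.783 RPKM) in the Prdm13 GFP/+ libraries and 15 and 8 reads (0.441 and 0.280 RPKM) in the Prdm13 GFP/GFP libraries. The genotypes overlapped, with the highest and second lowest values both in controls, and the adjusted p without the filter was 0.718. Of 4 dI1 genes, *Lhx9*, *Barhl1* and *Barhl2*, all dI1 transcription factors, were also under the filter, with 0.152 to 0.542 RPKM over all libraries. *Lhx2*, the fourth, measured 0.644 and 0.658 RPKM in Prdm13 GFP/+ and 1.37 and 1.53 RPKM in Prdm13 GFP/GFP, and was called higher with a log2 fold change of 1.05 (limma adjusted p = 0.0228). It passed the filter only in the Prdm13 GFP/GFP cells, which favors a higher call. Its call was lost without the first Prdm13 GFP/+ library (log2 fold change 1.03, adjusted p = 0.0513), the first Prdm13 GFP/GFP library (1.12, adjusted p = 0.0775) or the second (0.97, adjusted p = 0.0988), and *Lhx2* is not particular to dI1 cells. Of 2 other Atoh family genes, *Atoh7*, the retinal ganglion cell factor, was under the filter with 0.121 to 0.273 RPKM, and *Atoh8*, a more distant relative, was called higher, from 1.87 and 2.34 RPKM to 6.999 and 6.61 RPKM (log2 fold change 1.65, SE 0.124, limma adjusted p = 0.000411).

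The levels of the genes can be set beside each other because RPKM is per exon length. In Prdm13 GFP/+ cells the order was *Neurog2*, *Neurog1*, *Neurod1*, *Neurod4*, *Neurod2*, *Atoh1*, *Neurod6* and *Neurog3*. The libraries of *Neurod1* and *Neurod4* overlapped, as did those of *Neurod6* and *Neurog3*. In Prdm13 GFP/GFP cells *Neurod4* stood above *Neurod1* without overlap, and *Neurog3* and *Atoh1*, which overlapped, stood above *Neurod6*. By mean level among all genes of the table, *Neurog2* went from rank 1133 to rank 560, *Neurog1* from 6469 to 2213, *Neurod4* from 8354 to 3648 and *Neurod1* from 8201 to 7256.

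The make-up of the family also differed. The 8 genes summed to 85.5 and 96.5 RPKM in the Prdm13 GFP/+ libraries and 181.7 and 192.6 RPKM in the Prdm13 GFP/GFP libraries. *Neurog2* made up 70.1 and 71.7% of this sum in controls and 60.8 and 60.1% in mutants. The share of *Neurog1* was 11.52 and 13.0% against 19.4 and 21.8%, and that of *Neurod4* was 7.31 and 6.58% against 13.3 and 12.1%. *Neurod1* made up 8.63 and 6.24% against 4.93 and 4.64%, a smaller share of a larger sum. The genotypes did not overlap in any of these shares, which have no test beyond that order. The ratio of *Neurog2* to *Neurog1* was 6.09 and 5.53 in controls and 3.13 and 2.76 in mutants, and that of *Neurod4* to *Neurod1* was 0.847 and 1.06 against 2.70 and 2.62. The ratio of *Neurog1* to *Neurod4*, by contrast, overlapped between the genotypes, with 1.58 and 1.97 against 1.46 and 1.80.

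**Figure D3:**
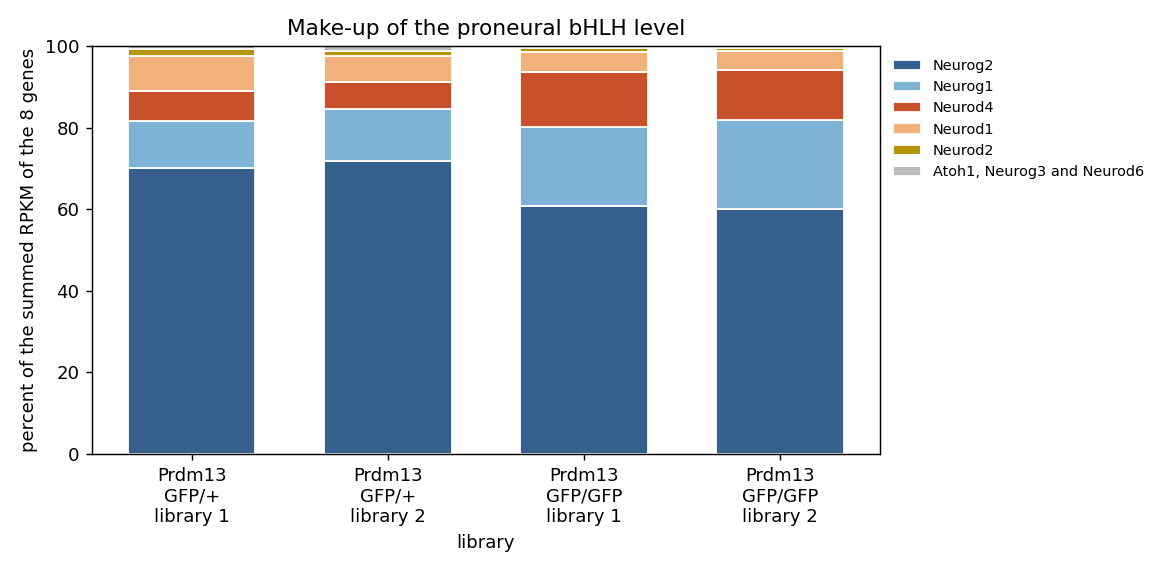
Share of each gene in the summed RPKM of the 8 genes, in percent, for each library; stacked colors are genes. *Neurog2* makes up 70.1 and 71.7% in the Prdm13 GFP/+ libraries against 60.8 and 60.1% in the Prdm13 GFP/GFP libraries, while the blocks of *Neurog1* and *Neurod4* are larger in both Prdm13 GFP/GFP libraries.

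The genes that work with the proneural factors were then examined in 7 lists that hold 48 genes, chosen with earlier results of these data known. Of the 43 tested, 12 were called higher and none lower in the Prdm13 GFP/GFP cells, where 3.65% of all genes tested were called higher and 2.67% lower. Of the 12, *Lhx2*, *Hey2* and *Heyl* passed the filter only in the Prdm13 GFP/GFP cells, so the filter favored a higher call. The E proteins, the partners of the proneural factors, were not called. *Tcf3* and *Tcf4* had log2 fold changes of 0.06 (limma adjusted p = 0.679) and -0.04 (adjusted p = 0.579), and *Tcf12* one of -0.20 (adjusted p = 0.0217), which is under the fold required. The summed E protein level was 260.6 and 271.1 RPKM in controls and 247.5 and 257.3 RPKM in mutants, so the libraries of the genotypes did not overlap, though by a narrow margin.

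All 4 Id genes, whose products hold E proteins away from DNA, were called higher. *Id1* rose from 46.4 and 53.8 RPKM to 107.9 and 122.3 RPKM (log2 fold change 1.20, SE 0.0881, limma adjusted p = 0.000374). *Id4* rose from 60.0 and 61.3 RPKM to 125.8 and 122.7 RPKM (log2 fold change 1.03, SE 0.0443, limma adjusted p = 3.30e-05). These changes were larger than that of *Neurog2* and smaller than those of *Neurog1* and *Neurod4*. *Id3* had a log2 fold change of 0.65 and *Id2* one of 0.59, barely over the threshold. The call of *Id2* was lost without the first Prdm13 GFP/+ library (0.52, limma adjusted p = 0.0108), without the second Prdm13 GFP/GFP library (0.54, adjusted p = 0.0376) and under both other scalings.

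Of 11 Notch pathway genes tested, only *Mfng*, a glycosyltransferase that modifies Notch receptors, was called. It rose from 13.0 and 16.1 RPKM to 59.4 and 64.0 RPKM (log2 fold change 2.08, SE 0.101, limma adjusted p = 5.69e-05), more than any of the 8 proneural genes. *Dll1*, a ligand that proneural factors switch on, measured 96.2 and 101.8 RPKM against 97.1 and 103.6 RPKM, and its libraries overlapped. The list's median log2 fold change was 0.27. Of the 5 Hes and Hey genes, which carry the Notch signal to proneural promoters, *Hey1* was called higher (log2 fold change 0.67, limma adjusted p = 0.000530), from 15.2 and 14.9 RPKM to 23.5 and 24.4 RPKM. *Hey2* and *Heyl* were called with levels of 0.797 to 1.74 RPKM over all libraries, and lost the call without any 1 of the 4 libraries, with log2 fold changes of 0.68 to 0.82 and 0.77 to 0.83 then. *Hey2* and *Heyl* passed the filter only in the Prdm13 GFP/GFP cells, which favors a higher call. The abundant *Hes1* and *Hes5* were not called, with log2 fold changes of -0.29 and 0.42.

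Of 18 genes known to act downstream of proneural factors in differentiating neurons, 2 were called higher, beside 3.65% of all genes tested. They were the neuronal factors *Ebf2*, from 14.2 and 13.9 RPKM to 25.5 and 23.5 RPKM (log2 fold change 0.79, limma adjusted p = 0.000456), and *Ebf3*, from 52.6 and 54.7 RPKM to 85.2 and 82.4 RPKM (log2 fold change 0.64, limma adjusted p = 0.000398). The other 16 were not called, and the median log2 fold change of the list was 0.22. The treat test called 4 of the 12 called genes of the 7 lists.

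**Figure D4:**
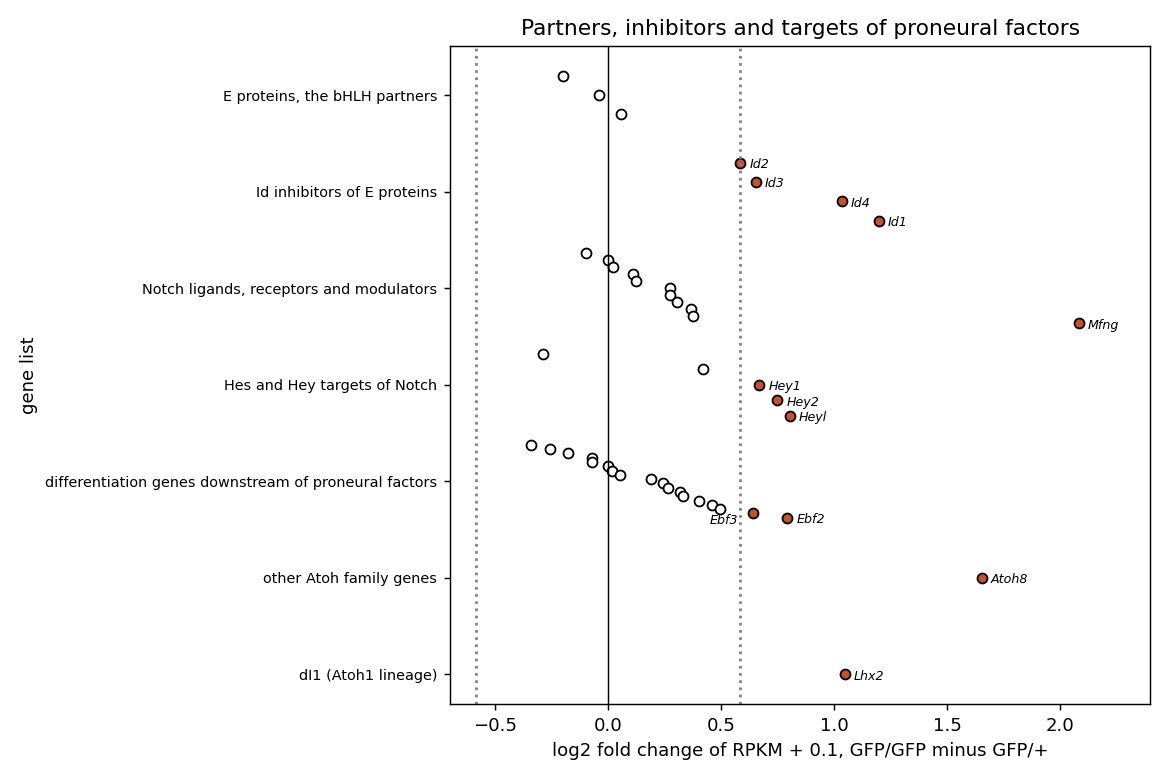
Log2 fold change, Prdm13 GFP/GFP minus Prdm13 GFP/+, of the 43 related genes tested, by list; filled and named points were called, and dotted lines are folds of 1.5 in either direction. All 4 Id genes lie at or beyond the right line, the E proteins and 10 of 11 Notch genes lie between the lines, and *Mfng* at 2.08 lies farthest right.

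Markers of other cells, and of the dorsal neural tube, were set beside these results. Over all genes tested, 3.65% were called higher and 2.67% lower. Of 9 dorsal root ganglion markers, 5 were tested and 4 called higher, *Ntrk3*, *Isl1*, *Pou4f1* and *Prdm12*. The study counts ISL1 and POU4F1 among factors of dorsal neural tube specification. It also shows ectopic *Prdm12* RNA in the dorsal neural tube of mutants. *Isl1*, *Pou4f1* and *Prdm12* are thus not markers of ganglion cells alone, and a ganglion share in the sorted cells was not tested. *Prdm12* passed the filter only in the Prdm13 GFP/GFP cells. The fifth, *Ntrk2*, had lower values in the mutants, 12.2 and 12.6 RPKM against 9.10 and 8.87 RPKM, and was under the fold required (log2 fold change -0.46, limma adjusted p = 0.00382). *Prph*, under the filter, measured 0.649 and 0.995 RPKM against 0.660 and 0.862 RPKM, and its libraries overlapped. The list summed to 36.3 and 38.3 RPKM in controls and 91.4 and 93.2 RPKM in mutants. *Pou4f1* alone measured 16.94 and 18.07 RPKM in controls and 52.85 and 52.65 RPKM in mutants. *Six4*, also under the filter, measured 0.822 and 0.725 RPKM in controls and 0.861 and 1.09 RPKM in mutants, without overlap. The ganglion genes *Runx1* and *Runx3* were at 0.0752 RPKM or less in every library. Neural crest and glia markers summed to 2.07 to 2.41 RPKM in controls and 2.74 to 3.05 RPKM in mutants. Of the 12 dorsal neural tube markers, 3 were called higher, *Ptf1a*, *Tlx3* and *Lmx1b*, and 6 lower, *Pax2*, *Lhx1*, *Lhx5*, *Gsx1*, *Gsx2* and *Lbx1*. The part of these shifts in the levels of *Neurog1*, *Neurog2* and *Neurod4* was not tested. Forebrain markers summed to at most 0.301 RPKM with *Emx2* at 0. Erythroid markers summed to 40.7 to 44.2 RPKM with 4 adult globin genes at 0, endothelial markers to 2.74 to 4.05 RPKM and mesenchymal markers to 3.78 to 5.25 RPKM.

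For each called member, the genes with the most similar pattern over the 4 libraries were sought by Euclidean distance between gene-centered log2(RPKM + 0.1) values. For *Neurog1* they were *Sox8* (distance 0.192), *Mir92b* (0.193, on 1 to 6 reads per library) and *Myh14* (0.210). For *Neurog2* they were *AI118078* (0.0302), *Zfpm1* (0.0458) and *Gareml* (0.0464). For *Neurod4* they were *Insrr* (0.0746), *Pla2g7* (0.0966) and *Crabp1* (0.102). With 4 libraries in 2 groups, the distance mostly reflects the size of the fold change and the difference within each pair of libraries.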

How the data were processed

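Poly(A) RNA of GFP+ cells was sequenced from 4 libraries, 2 per genotype, grouped by the submitters' labels. Per the submitters' processing notes and the study's methods, reads were aligned to mm10 with TopHat2 2.1.0 and counted on RefSeq exons, and the authors deposited RPKM values after TMM normalization in edgeR 3.6.8 for 24421 genes. ChIP-seq files were not used here. The deposited RPKM were used without further scaling. Genes with a mean of at least 1 RPKM in either genotype (12046) were tested on log2(RPKM + 0.1) with limma 3.58.1 in R 4.3.3 (eBayes with a trend). RPKM within a library are whole multiples of a step set by exon length and library size, and whole reads were recovered on that basis for 99.48% of the 18991 genes with an annotated length and a value above 0 (within 0.003 of a whole number, plus 1e-06 per read). Read counts rest on an exon length solved for each gene, and 70.35% of solved lengths were within 5% of the annotated length. Recovered reads summed to 11814836 and 18778831 for Prdm13 GFP/+ and 16740011 and 14157549 for Prdm13 GFP/GFP. Both steps were tested on simulated data. Promoter sequences are from RefSeq. All 8 genes and, of the other lists, called genes and short lists were to be named. *Dll1* and the marker genes beyond that rule were chosen after values were seen. Some marker genes are not reported here and were left out of the lists and sums after values were seen. The genes and lists were chosen with earlier results of these data known. Alternatives changed the pseudocount, filter, scaling, test, block and libraries, and limma voom was run on the recovered reads. Other tools were Python 3.11.15 with pandas 2.3.3, numpy 2.4.6, matplotlib 3.10.9 and scipy 1.17.1.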

Additional observations from a re-analysis of the deposited data

How the results depend on the processing

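Of the 15 alternatives, all but 2, no filter on RPKM and the treat test, kept the 3 calls among the proneural genes, and directions held for all 5 genes tested under every alternative. Without the filter on RPKM, where all 24421 genes were tested, only *Neurod4* was called, 1 of the 8 genes. *Neurog1* then had the same log2 fold change of 1.78 with an adjusted p of 0.0907 and *Neurog2* one of 0.81 with an adjusted p of 0.105. Under the same setting 44 of all genes, against 762, and 1 related gene, against 12, were called. With limma's treat test 208 genes and 4 related genes were called, and *Neurog2*, at 0.81, was not, which left 2 of the 8 genes called. Leaving out 1 library gave 3 calls among the 8 genes each time, 470 to 687 over all genes, the fewest without the second Prdm13 GFP/GFP library, and 8 to 10 among related genes. Over these fits the log2 fold change ran from 1.61 to 1.96 for *Neurog1*, 0.71 to 0.91 for *Neurog2* and 1.88 to 1.92 for *Neurod4*, and from 0.27 to 0.56 for *Neurod1* and 0.40 to 0.47 for *Neurod2*, neither called. A genotype left with 1 library is assumed to vary like the other. With the replicate number as a block, 459 genes were called higher and 342 lower, with 3 of the 8 genes among them. Libraries of the same number share only that number in the labels, and the correlation of their deviations was 0.05. With 2 libraries per genotype the second pair mirrors the first, so this is a single comparison. Limma voom on recovered reads without a filter, chosen after seeing the data, gave adjusted p values of 0.146 for *Neurog3*, 0.308 for *Atoh1* and 0.151 for *Neurod6*. With 1 pool of embryos per genotype, no setting measures differences between embryos, and at 1 to 30 reads per library these 3 genes can show only large changes. The causes of these differences were not tested.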
